A study of Mus musculus with 6 samples.

Results

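Toll-like receptors (TLRs) sense microbial products, and they signal through a small set of shared proteins inside the cell. The transcripts of 10 of these were followed in mouse cells labelled BMDC, the name for antigen-presenting dendritic cells grown in culture from bone marrow. They are the adaptors Myd88, Tirap, Ticam1 and Ticam2, the kinases Irak1, Irak2, Irak3 and Irak4, the ubiquitin ligase gene Traf6 and the chaperone gene Unc93b1. Members were chosen by gene symbol, as 10 of the 55487 genes of the table, and all 10 were expressed highly enough to be tested. One group was labelled as treated with NanoCa, in a series whose title speaks of a lipid nanoparticle with a calcium crystal, and the other, Mock, as given no treatment. The protocol field gives NanoCa at 100 μM on the Mock samples too, and the treatment label was followed. The labels call the cells both a cell line and dendritic cells from marrow. All samples are labelled as female, 4 to 8 weeks old, with 1 batch date, and neither strain nor time of exposure is given in the sources used here. The labels list 3 samples a group, but in each group the column of replicate 3 was a constant multiple of the mean of replicates 1 and 2 (1.0011 in NanoCa, 1.001876 in Mock). Only replicates 1 and 2 were therefore used, 2 libraries a group.

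As background, MyD88 is the adaptor of all TLRs except TLR3, and of the interleukin 1 receptor family. It gathers IRAK4, which joins IRAK1 or IRAK2 in a complex called the Myddosome, and TRAF6 then builds the ubiquitin chains that activate NF-kB and MAP kinases. TIRAP brings MyD88 to TLR2 and TLR4 at the membrane. TRIF (Ticam1) serves TLR3 and, with the help of TRAM (Ticam2), TLR4, and it leads through TBK1 to interferon beta. IRAK3, also called IRAK-M, is known as a brake on the Myddosome, and UNC93B1 carries nucleic acid sensing TLRs from the endoplasmic reticulum to endosomes.

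The promoters of the Myddosome genes with the clearest values below are shown because their transcripts moved differently: Myd88 and Irak2 were higher in NanoCa and Irak4 was lower. Each window runs from 250 bases before the RefSeq start site to 50 after it, 5′ to 3′ on the strand of the gene (RefSeq, build GRCm38.p6). Capitals mark matches to the interferon-stimulated response element (ISRE, read as TTTC, any 2 bases, then TTTC) or the gamma-activated site (GAS, TTCNNNGAA), searched on both strands.
Myd88, chr9:119339969-119340268, minus strand: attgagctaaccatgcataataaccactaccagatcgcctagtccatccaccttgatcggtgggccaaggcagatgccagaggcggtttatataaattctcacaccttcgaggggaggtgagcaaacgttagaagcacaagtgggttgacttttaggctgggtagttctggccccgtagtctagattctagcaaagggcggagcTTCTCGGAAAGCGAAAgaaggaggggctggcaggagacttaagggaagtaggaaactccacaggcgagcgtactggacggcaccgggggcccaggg
Irak2, chr6:113638217-113638516, plus strand: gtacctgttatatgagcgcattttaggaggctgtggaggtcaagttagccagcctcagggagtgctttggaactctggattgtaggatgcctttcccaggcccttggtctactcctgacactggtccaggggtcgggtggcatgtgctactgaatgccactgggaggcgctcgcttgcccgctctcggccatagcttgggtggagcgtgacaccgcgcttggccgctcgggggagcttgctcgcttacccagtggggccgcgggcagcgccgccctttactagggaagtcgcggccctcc
Irak4, chr15:94543410-94543709, plus strand: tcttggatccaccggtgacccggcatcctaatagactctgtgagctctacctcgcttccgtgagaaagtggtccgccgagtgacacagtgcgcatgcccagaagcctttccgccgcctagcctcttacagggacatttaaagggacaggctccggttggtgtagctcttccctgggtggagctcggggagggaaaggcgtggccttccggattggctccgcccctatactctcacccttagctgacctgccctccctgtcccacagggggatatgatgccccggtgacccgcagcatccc
The Myd88 window held a GAS match from 46 to 38 bases before the start site, and an ISRE match on the opposite strand from 40 to 31 bases before it, so that the matches overlap by 3 bases. Windows of 8 of the members were searched (11 windows, since 3 genes have 2). Myd88 was the only one of those 8 with a match to ISRE, GAS or the NF-kB consensus. No window of Ticam2 or Unc93b1 was searched. Among all 32851 windows of this length, 3.44% held an ISRE match, 8.3% a GAS match and 4.51% an NF-kB match. A match is a description of letters, and its absence from a window says nothing about binding.

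Values are FPKM as deposited, reads per kilobase of a length taken for each gene and scaled to the reads of the library. From the steps of the FPKM values, the NanoCa libraries held 23991472 and 22793565 reads and the Mock libraries 31131990 and 26975437. Each member rested on 448 to 12021 reads a library. The libraries also differed in what marks cell types and sex. Of 8 dendritic cell markers, Flt3 (0.193 FPKM in NanoCa and 0.311 in Mock), Zbtb46 (0.512 in NanoCa and 0.581 in Mock) and Cd209a (0.13 in NanoCa and 1.44 in Mock) averaged under the minimum of 1 FPKM. The other 5, with Itgax, Cd74 and H2-Ab1 among them, were lower in NanoCa (summed FPKM of all 8: 1585 and 1673 in NanoCa, 2643 and 2610 in Mock). The 8 macrophage markers summed to 2164 and 2271 FPKM in NanoCa and 1194 and 1236 in Mock, with 6 called higher and 1 lower. The 10 granulocyte markers summed to 51.2 and 63.1 FPKM in NanoCa and 229 and 418 in Mock, with all 6 tested called lower and 4 not tested. The 6 mast cell and basophil markers summed to 2.64 and 2.68 FPKM in NanoCa and 12.3 and 20.0 in Mock. All 3 that were tested were called lower, 3 were not tested, and Tpsb2 was at 0 in NanoCa. The 5 fibroblast markers summed to 39.9 and 38.2 FPKM in NanoCa and 7.64 and 7.82 in Mock, with all 4 tested called higher. Only markers averaging at least 1 FPKM were tested. By the same test, 21.7% of all tested genes were called higher and 49.7% lower. B cell markers summed to 0.164 to 0.361 FPKM and T and NK cell markers to 0.471 to 0.951 over the 4 libraries, with Cd8b1 and Ncr1 at 0. Xist had 14413 and 13639 reads in NanoCa and 1 in each Mock library. Transcripts of Kdm5d, Eif2s3y, Uty and Ddx3y, which lie on the Y chromosome, had reads in each library, with NanoCa at 29.4% to 40.4% of Mock. Such reads go against the label of female that all samples carry. The Xist and Y-linked levels differed along with the groups, so a difference in sex and the treatment cannot be told apart in the values below. In bulk RNA, fewer cells of a type and less RNA per cell cannot be told apart, and the part of these differences in the values below was not tested.

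Of the 10 members, 5 were higher in NanoCa (Irak2, Ticam1, Myd88, Unc93b1 and Irak3), 3 were lower (Ticam2, Irak4 and Tirap) and Irak1 and Traf6 did not pass the test. The test was limma on log2(FPKM + 1) over 11116 genes, two-sided, with a Benjamini-Hochberg adjusted p under 0.05 as the threshold. By the same rule 71.3% of all tested genes were called, 21.7% as higher and 49.7% as lower, so that a call by itself is common here. The groups did not overlap for 9 of the members, Irak1 being the exception, and for 86.3% of all tested genes. The median log2 fold change of the members was 0.18 and that of all genes -0.17. With median-of-ratios scaling, which moves the median of all genes to about 0, 7 members were higher and 2 lower (3717 and 3620 of all genes, against 2409 and 5520 as deposited). With quantile normalization 6 members were higher and 2 lower (3307 and 4040 of all genes).

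**Figure D1:**
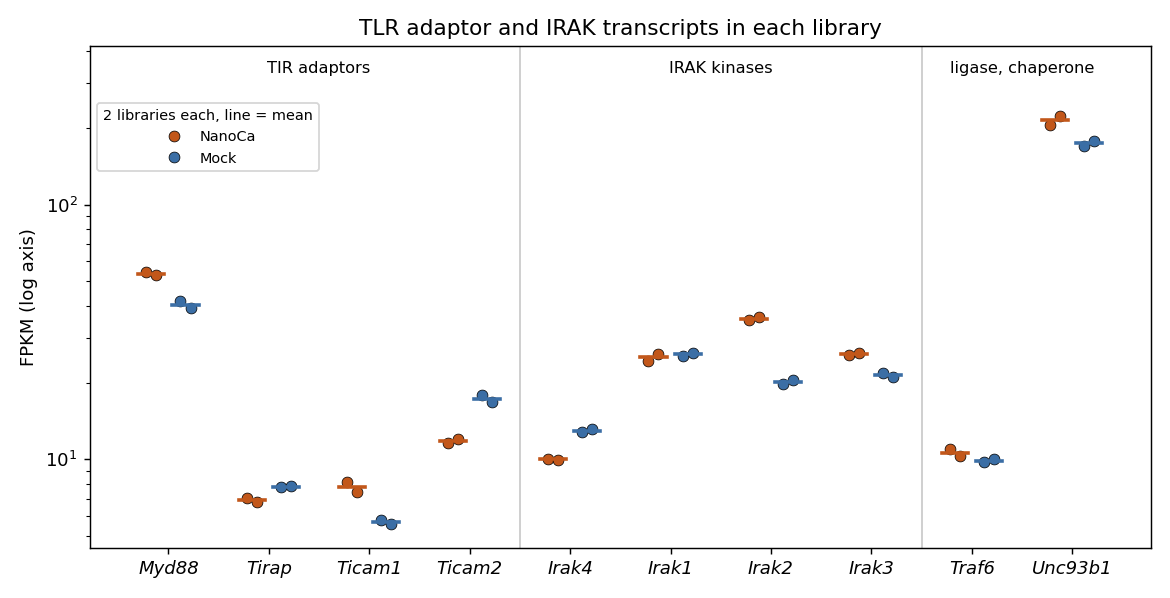
FPKM (log axis) of each member in each library, grouped by role, with 2 points and their mean as a line for NanoCa (left) and Mock (right). Unc93b1 stands at the top and Irak2 shows the widest gap of the higher members, with 35.1 and 36.2 FPKM in NanoCa and 19.8 and 20.5 in Mock.

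Among the adaptors, the transcripts of MyD88 and TRIF rose and those of TRAM fell. Myd88 (ENSMUSG00000032508, chromosome 9) had 54.2 and 53.0 FPKM in NanoCa, against 41.8 and 39.2 in Mock. Both NanoCa libraries were above both Mock libraries, and the group means were 53.6 ± 0.804 in NanoCa and 40.5 ± 1.86 in Mock (SD, n = 2 each). The log2 fold change was 0.40 (SE 0.045, limma adjusted p = 0.000412), or 0.57 above the median of all genes. Ticam1 (ENSMUSG00000047123, chromosome 17), the gene of TRIF, had 8.15 and 7.42 FPKM in NanoCa, against 5.78 and 5.55 in Mock. The groups did not overlap, and its log2 fold change was also 0.40 (SE 0.063, limma adjusted p = 0.00173), from 506 to 585 reads a library in NanoCa and 448 to 538 in Mock.

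Ticam2 (ENSMUSG00000056130, chromosome 18), the gene of TRAM, had 11.6 and 12.0 FPKM in NanoCa, against 17.8 and 16.8 in Mock. Both NanoCa libraries were below both Mock libraries. Its level in NanoCa was 67.9% of Mock (log2 fold change -0.52, SE 0.05, limma adjusted p = 0.000193), the largest fall of the 10 members. TRIF and TRAM act together at TLR4, so the 2 adaptors of 1 branch were called in opposite directions. Tirap (ENSMUSG00000032041, chromosome 9), the bridging adaptor of MyD88, had 7.07 and 6.80 FPKM in NanoCa, against 7.76 and 7.84 in Mock. Its log2 fold change was small, at -0.15 (SE 0.051, limma adjusted p = 0.0381). The call was lost without NanoCa replicate 1 (adjusted p = 0.0589), NanoCa replicate 2 (0.141), Mock replicate 1 (0.109) or Mock replicate 2 (0.142), and the sign turned with median-of-ratios scaling (0.0204) and quantile normalization (0.0461).

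Directions and calls of Myd88, Ticam1 and Ticam2 held under both scalings, with log2 fold changes of 0.59, 0.57 and -0.34 under median-of-ratios scaling and 0.36, 0.61 and -0.38 under quantile normalization. Within a library, the share of each adaptor in the summed FPKM of the 4 does not depend on that library's scaling factor. Myd88 made up 66.9% and 67.0% of that sum in NanoCa and 57.1% and 56.4% in Mock. Ticam2 made up 14.3% and 15.1% in NanoCa and 24.4% and 24.2% in Mock. Ticam1 was at 10.1% and 9.36% in NanoCa and 7.9% and 8.0% in Mock, and Tirap at 8.73% and 8.58% in NanoCa and 10.6% and 11.3% in Mock. Ticam1 thus stood above Tirap in both NanoCa libraries and below it in both Mock libraries, while the sum itself was 80.1 ± 1.22 FPKM in NanoCa and 71.3 ± 2.66 in Mock (SD, n = 2 each).

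Among the kinases, Irak2 rose the most of all members and Irak4 fell. Irak2 (ENSMUSG00000060477, chromosome 6), whose product can take the place of IRAK1 in the Myddosome, had 35.1 and 36.2 FPKM in NanoCa, against 19.8 and 20.5 in Mock. The group means were 35.7 ± 0.762 in NanoCa and 20.1 ± 0.529 in Mock (SD, n = 2 each), a gap many times the spread within either group. The log2 fold change was 0.79 (SE 0.042, limma adjusted p = 1.84e-05), or 0.97 above the median of all genes, and 6.71% of tested genes had a higher one. The ratio of reads, each over its library totals, was 1.77 (exact 95% interval 1.70 to 1.85, which covers counting error only).

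Irak4 (ENSMUSG00000059883, chromosome 15), the kinase that MyD88 binds directly, had 10.1 and 9.97 FPKM in NanoCa, against 12.8 and 13.2 in Mock. The groups did not overlap, and NanoCa stood at 77.2% of Mock (log2 fold change -0.34, SE 0.046, limma adjusted p = 0.000826). Relative to the median of all genes it was 0.17 lower. Irak3 (ENSMUSG00000020227, chromosome 10), the gene of the brake IRAK-M, had 25.6 and 26.1 FPKM in NanoCa, against 21.9 and 21.0 in Mock. Both NanoCa libraries were higher, and the log2 fold change was 0.26 (SE 0.042, limma adjusted p = 0.0019).

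Irak1 (ENSMUSG00000031392, chromosome X), the X-linked kinase that IRAK4 phosphorylates, was the one member whose groups overlapped. It had 24.4 and 26.0 FPKM in NanoCa, against 25.4 and 26.2 in Mock (log2 fold change -0.03, SE 0.047, limma adjusted p = 0.535). Its ratio of reads was 0.976 (exact 95% interval 0.939 to 1.02), with at least 2246 reads behind each library. Under median-of-ratios scaling Irak1 passed the test as higher (0.15, adjusted p = 0.0269), under quantile normalization it did not (0.03, adjusted p = 0.57), and it lies on the chromosome whose inactivation marker Xist differed between the groups. The other kinases kept direction and call under both scalings, but the size moved: median-of-ratios scaling gave 0.98 for Irak2, 0.45 for Irak3 and -0.17 for Irak4, and quantile normalization 0.86, 0.35 and -0.18.

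**Figure D2:**
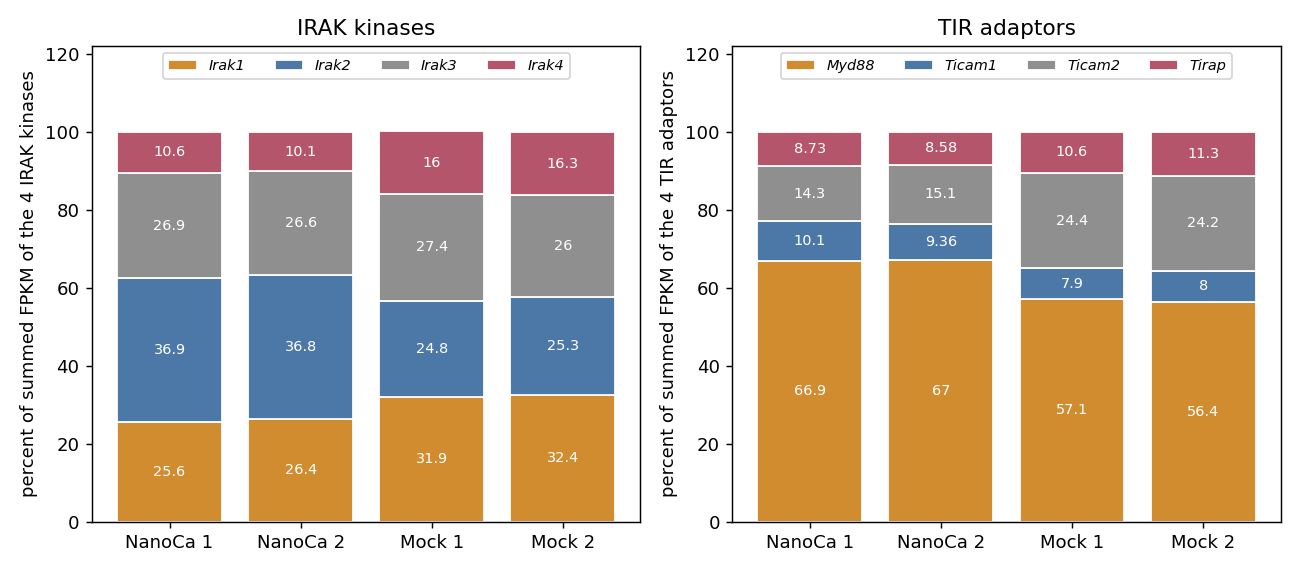
Share (percent) of each transcript in the summed FPKM of the 4 IRAK kinases (left) and of the 4 TIR adaptors (right), per library. Irak2 takes 36.9% and 36.8% in NanoCa and 24.8% and 25.3% in Mock, and Ticam2 is the adaptor whose share is smaller by the most in NanoCa.

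The make-up of the IRAK pool differed between the groups in the same way in both libraries. Irak2 made up 36.9 ± 0.024% of the summed IRAK FPKM in NanoCa and 25.1 ± 0.42% in Mock (SD, n = 2 each). Irak1 made up 26.0 ± 0.565% in NanoCa and 32.1 ± 0.345% in Mock, and Irak4 10.4 ± 0.29% in NanoCa and 16.1 ± 0.211% in Mock. The share of Irak3 was the same within its spread, at 26.7 ± 0.252% in NanoCa and 26.7 ± 0.975% in Mock. Irak2 was thus the most abundant of the 4 kinases per length in NanoCa, and Irak1 in Mock. The IRAK sum was 95.2 and 98.2 FPKM in NanoCa and 79.8 and 80.9 in Mock. These shares are given as a description, and no test was run on them.

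Traf6 (ENSMUSG00000027164, chromosome 2), the ubiquitin ligase gene downstream of the kinases, had 10.97 and 10.3 FPKM in NanoCa, against 9.72 and 10.0 in Mock. The groups did not overlap, but the gap did not pass the test (log2 fold change 0.10, SE 0.053, limma adjusted p = 0.144). Scaling changed that: Traf6 passed as higher under median-of-ratios scaling (0.27, adjusted p = 0.00397) and quantile normalization (0.26, adjusted p = 0.00554). Unc93b1 (ENSMUSG00000036908, chromosome 19), the gene of the TLR escort, was the most abundant member. It had 205 and 224 FPKM in NanoCa, against 170 and 178 in Mock. Both NanoCa libraries were above both Mock libraries, at 123% of Mock (log2 fold change 0.30, SE 0.053, limma adjusted p = 0.0031). It was higher under both scalings, though the size ranged from 0.14 with quantile normalization (adjusted p = 0.0374) to 0.49 with median-of-ratios scaling.

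**Figure D3:**
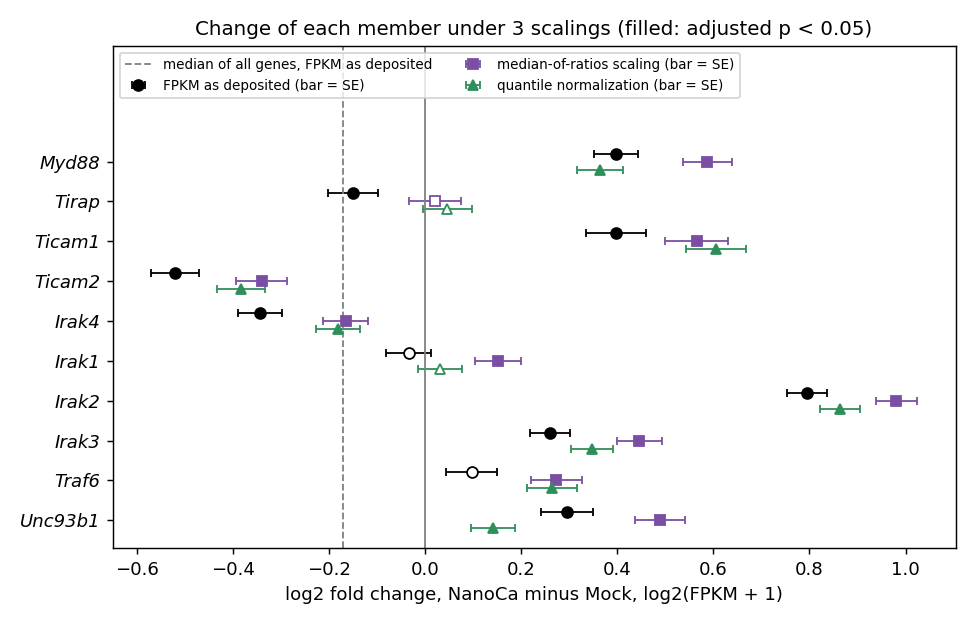
Log2 fold change of each member (NanoCa minus Mock, on log2(FPKM + 1)) with its SE, for FPKM as deposited and under 2 other scalings, filled where the adjusted p is under 0.05. Irak2, Myd88, Ticam1, Irak3 and Unc93b1 lie right of 0 and Ticam2 and Irak4 left of 0 in all 3, while Tirap and Irak1 change sides.

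Levels spanned from 6.93 FPKM (Tirap) to 214 (Unc93b1) in NanoCa and from 5.66 (Ticam1) to 174 (Unc93b1) in Mock. The order in NanoCa, from high to low, was Unc93b1, Myd88, Irak2, Irak3, Irak1, Ticam2, Traf6, Irak4, Ticam1 and Tirap. In Mock it was Unc93b1, Myd88, Irak1, Irak3, Irak2, Ticam2, Irak4, Traf6, Tirap and Ticam1. Irak3 and Irak1 in NanoCa were the only neighbours in either order whose libraries overlapped, though each level rests on 2 libraries. These orders and the shares above depend on the length taken for each gene. In NanoCa, Traf6 had more reads (1624 and 1448) than Ticam2 (1166 and 1147), at a length of 6169 bases against 4204. Myd88 and Irak4, whose products bind each other, averaged 53.6 and 10.0 FPKM in NanoCa and 40.5 and 13.0 FPKM in Mock.

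Some members share genomic space with other genes in the GENCODE M21 annotation, and the sources used here do not say whether counting used strand. Ticam2 overlaps Tmed7, which encodes a cargo receptor for TLR4, on the same strand. Tmed7 had 161 and 153 FPKM in NanoCa and 161 and 157 in Mock (log2 fold change -0.02, limma adjusted p = 0.688), so its level exceeds that of Ticam2 and it was not called where Ticam2 was lower. Opposite-strand partners above 1 FPKM were Acaa1a for Myd88 (64.4 ± 2.02 FPKM in NanoCa and 59.4 ± 0.389 in Mock), Srpr for Tirap (209 ± 4.82 in NanoCa and 167 ± 6.01 in Mock), Tmbim4 for Irak3 (55.0 ± 2.59 in NanoCa and 43.7 ± 1.69 in Mock) and Twf1 for Irak4 (36.1 ± 1.21 in NanoCa and 44.3 ± 0.614 in Mock; SD, n = 2 each). Acaa1a and Tmbim4 were called higher as Myd88 and Irak3 were, Twf1 was lower as Irak4 was, and Srpr was higher where Tirap was lower. How reads in the overlaps were divided was not tested. No annotated gene overlapped Ticam1, Traf6 or Unc93b1, and those of Irak2 were at 4.03 FPKM or less. The other overlapping genes, Slc22a14 for Myd88, Gm39318 for Tirap, Gm47009 for Irak3 and the microRNA genes Mir718 and Mir5132 for Irak1, were at 0.294 FPKM or less in each library.

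Upstream of the adaptors, 8 of 13 tested TLRs and co-receptors were higher in NanoCa, 3 lower and 2 not called. Over all tested genes the shares were 21.7% higher and 49.7% lower. Under median-of-ratios scaling 9 were higher and 3 lower, and under quantile normalization 8 and 5. Tlr2, not called as deposited, passed as higher under median-of-ratios scaling (log2 fold change 0.19, limma adjusted p = 0.00811). Quantile normalization called Tlr2 lower (-0.17, limma adjusted p = 0.0162). The list held 17 genes, of which 4 had a mean under 1 FPKM. Cd14, which hands lipopolysaccharide to TLR4, had the largest rise of the list, averaging 256 ± 9.89 FPKM in NanoCa, against 67.1 ± 0.703 in Mock (log2 fold change 1.92). Tlr3, the receptor that uses TRIF alone, averaged 20.7 ± 0.712 FPKM in NanoCa, against 5.996 ± 0.437 in Mock (1.63, SD, n = 2 each). The TLR4-like receptor Cd180 (1.30) and its partner Ly86 (0.95) rose, as did the DNA sensor Tlr9 (0.23). Tlr4, which uses all 4 adaptors, fell (-0.61), and the RNA sensor Tlr7 was at -0.11 (limma adjusted p = 0.0858), or lower under quantile normalization (-0.26, adjusted p = 0.00335).

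Of 4 tested receptors of the interleukin 1 family, which also use MyD88, 3 fell and 1 rose. With 49.7% of all tested genes called lower, 4 genes are too few to read a trend of the family. Il1rl2, the interleukin 36 receptor, averaged 7.77 ± 0.477 FPKM in NanoCa, against 30.9 ± 0.639 in Mock (log2 fold change -1.87; SD, n = 2 each). Il18rap (-1.28) and Il1r1 (-0.76) fell, and Il1rap, the shared accessory chain, rose (0.45). Il18rap averaged 0.613 FPKM in NanoCa and 2.92 in Mock (21.0% of Mock), and Il1r1 1.12 in NanoCa and 2.58 in Mock (43.4%). At such levels the log2(FPKM + 1) scale understates the change. The other 2 of the 6 listed, Il18r1 and Il1rl1, were under the minimum FPKM.

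Genes that fold, carry or process TLRs alongside UNC93B1 were divided, with 6 of 14 higher, 5 lower and 3 not called (8 higher and 1 lower under median-of-ratios scaling). As deposited, 21.7% of all tested genes were called higher and 49.7% lower. Lgmn, a lysosomal protease that cleaves endosomal TLRs, averaged 594 ± 24.0 FPKM in NanoCa, against 252 ± 0.354 in Mock (log2 fold change 1.23; SD, n = 2 each). The lysosomal transporter Slc15a3 (1.22) and the vesicle GTPase Rab11a (0.39) rose. Cnpy3, a folding factor for most TLRs, fell (-0.46), and Hsp90b1, the chaperone it works with, was at -0.01 (limma adjusted p = 0.788; 0.18, adjusted p = 0.0131, under median-of-ratios scaling).

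Below TRAF6, 2 of 16 tested ubiquitin ligase, TAK1 and IKK genes rose, 8 fell and 6 were not called. The split was 4 and 4 under median-of-ratios scaling and 1 and 5 under quantile normalization. As deposited, 21.7% of all tested genes were called higher and 49.7% lower. The list median of -0.16 was close to the -0.17 of all genes, so the list as a whole did not stand apart from them. The IRAK-binding ligase Peli1 averaged 32.2 ± 1.36 FPKM in NanoCa, against 18.1 ± 1.08 in Mock (log2 fold change 0.80; SD, n = 2 each), while its relative Peli2 fell (-1.06). Tifab, a relative of the TRAF6 partner TIFA, fell (-1.24), as did Map3k7, which encodes TAK1 (-0.53). In the MAP kinase branch 1 of 8 rose, 3 fell and 4 were not called (4 and 2 under median-of-ratios scaling, 3 and 3 under quantile normalization). Mapkapk2 rose (0.50) and the p38 kinase Mapk14 (-0.47), Map2k6 (-0.79) and Map2k4 (-0.32) fell. Map2k4 was not called under median-of-ratios scaling (-0.13). Map2k6 was near the minimum level, averaging 0.76 FPKM in NanoCa and 2.045 in Mock (37.0% of Mock), so its log2 value understates the change.

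On the TRIF branch 4 of 8 genes rose, 2 fell and 2 were not called (6 and 0 under median-of-ratios scaling, 5 and 1 under quantile normalization). Over all tested genes as deposited, 21.7% were called higher and 49.7% lower. Ikbke, a kinase that activates IRF3, averaged 94.6 ± 1.69 FPKM in NanoCa, against 50.6 ± 0.434 in Mock (log2 fold change 0.89; SD, n = 2 each). The TBK1 adaptors Azi2 (0.74) and Tank (0.66) and the ubiquitin ligase Traf3 (0.31) rose. Tbk1 itself had 51.2 ± 1.88 FPKM in NanoCa and 49.9 ± 0.648 in Mock (0.04, limma adjusted p = 0.471), and passed as higher under median-of-ratios scaling (0.23, adjusted p = 0.0049). Among the other TRAF genes, Traf1 (0.75) and Traf2 (0.50) rose and Traf5 (-0.28) and Traf7 (-0.27) fell; neither fall was called under median-of-ratios scaling, and only that of Traf7 was under quantile normalization.

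Of 13 other brakes on TLR signalling that were tested, 8 were higher, 4 lower and 1 not called (9 and 3 under median-of-ratios scaling, 7 and 4 under quantile normalization). The shares of all tested genes as deposited were 21.7% higher and 49.7% lower, and 13 genes are few to compare with them. Their median log2 fold change was 0.17, close to the members' 0.18 and above the -0.17 of all genes. Tnfaip3 (A20), which removes ubiquitin from TRAF6, averaged 28.2 ± 1.45 FPKM in NanoCa, against 8.32 ± 0.243 in Mock (1.65; SD, n = 2 each). The signalling adaptor Pik3ap1 (1.41), Trim30a (1.38) and the transcription factor Atf3 (1.34) rose too. Tollip, which binds IRAK1, rose slightly (0.13, limma adjusted p = 0.0242) and was not called under quantile normalization (0.06). The inhibitory receptor gene Sigirr fell (-0.72) at a low level, averaging 0.758 FPKM in NanoCa and 1.89 in Mock, or 40.1% of Mock. The log2(FPKM + 1) scale understates the change of so low a gene.

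**Figure D4:**
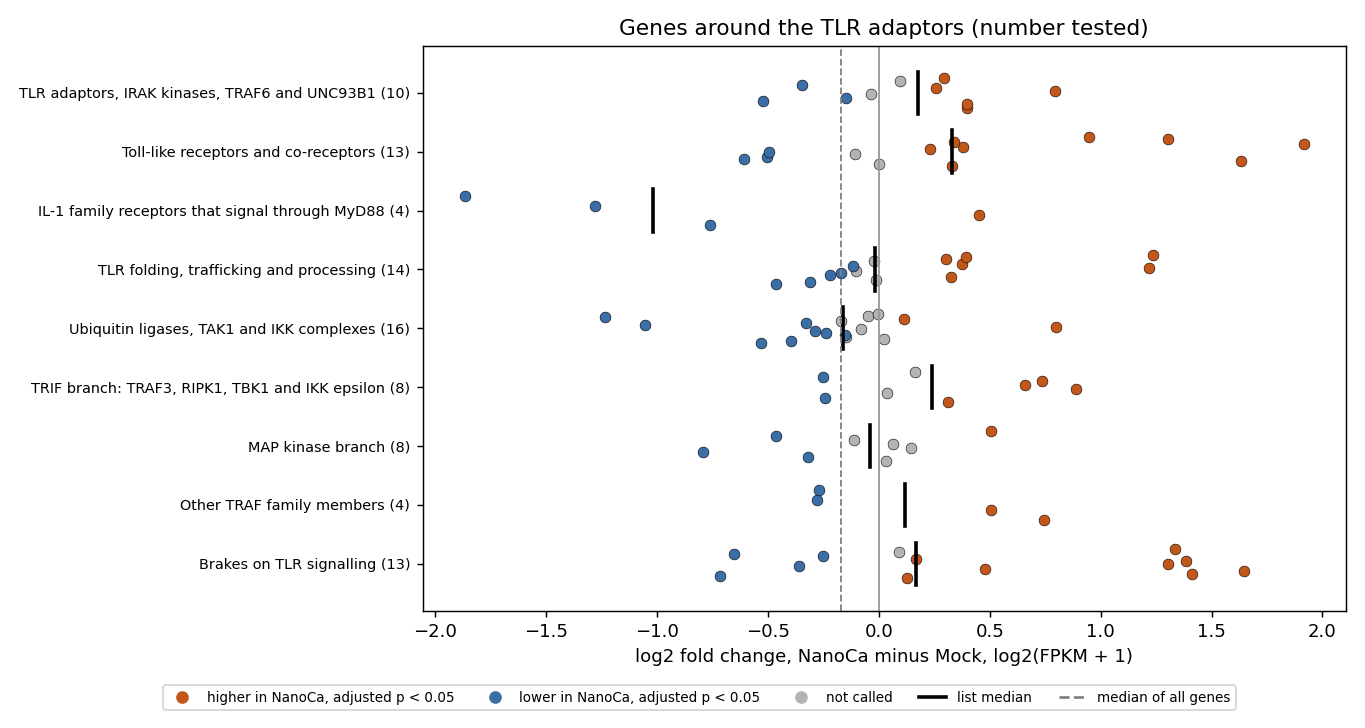
Log2 fold change (NanoCa minus Mock, on log2(FPKM + 1)) of each tested gene in the members' own list and 8 lists of genes that act with them, coloured by call, with the list median as a bar and the median of all genes as a dashed line. For FPKM as deposited, the interleukin 1 family receptors have a median of -1.02 and the TLRs and co-receptors one of 0.33.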

How the data were processed

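RNA was extracted with trizol and sequenced from SMARTER mRNA libraries, per the labels' protocols. The deposited table holds FPKM values that the authors computed, with GRCm39 as the build per the submitters' processing notes. The sources used here name no aligner, counter or annotation. Replicate 3 of each group equalled a constant times the mean of the other replicates over 21557 genes in NanoCa and 22162 in Mock, so it carries no spread of its own and was left out.

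Whole reads (tolerance 1e-06) came out for all 23929 genes with a value, given the library totals: for 23650 at an annotated transcript length (GENCODE M21, used for lengths, chromosomes and overlaps), and for the others at a length found by search. Genes with a mean of at least 1 FPKM went into 1 limma fit (version 3.58.1, R 4.3.3, lmFit and eBayes with trend) on log2(FPKM + 1). Fold changes on this scale understate low genes. Nothing in the labels ties a replicate to its own animal or culture, so the p-values cover the spread between libraries alone, and that spread may be technical. Members and lists were chosen with earlier results of these data known. All members were named. From each list the text named up to 4 called genes with the largest change and a set of known partners of the members. Of the listed genes, Tasl was not analysed here. Alternatives covered scaling, pseudocount, filters, left-out libraries, a replicate block and limma-voom on the recovered reads.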

Additional observations from a re-analysis of the deposited data

How the results depend on the processing

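Under 14 alternatives (13 for the X-linked Irak1), Myd88, Ticam1, Ticam2, Irak2, Irak3, Irak4 and Unc93b1 kept their direction and their call in each. Irak2 ranged from 0.77 to 0.98 on the log2 scale and its highest adjusted p was 0.000872. Unc93b1 ranged from 0.14 to 0.49 and its highest adjusted p was 0.0374. Over all genes, median-of-ratios scaling gave 3717 higher and 3620 lower. Tirap turned with median-of-ratios scaling (0.0204) and quantile normalization (0.0461), and its call was lost with no filter on low values (adjusted p = 0.0645) and in each fit without 1 library (-0.17 to -0.13). Irak1 turned with median-of-ratios scaling (0.15) and quantile normalization (0.0314), and ranged from -0.077 to 0.0088 in the fits without 1 library, being above 0 without NanoCa replicate 1. Traf6 passed under both scalings and with the replicate 3 columns kept (adjusted p = 0.0121), which lowers the spread by construction. For the other changes the cause was not tested. Replicate numbers are shared between the groups, but the labels tie them to no animal or day. The deviations of NanoCa and Mock replicate 1 correlated across genes at 0.133, over only 2 pairs. With the replicate number as a block, 2538 genes were higher and 5691 lower, and 5 and 3 of the members, and it changed no call of a member. Limma-voom on the recovered reads called 2487 genes higher and 5609 lower. A fit without 1 library leaves 1 in a group, which is then assumed to vary like the others. The thinnest member value rested on 448 reads.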
